A study of Mus musculus with 6 samples.

Results

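Membrane carriers of organic anions, organic cations and bile salts were examined in liver RNA of mice labelled as a hepatocyte-specific knockout of G3bp1. The set holds the protein-coding genes of the deposited table whose symbols belong to the families Slco, Slc22a, Slc10a, Slc17a or Slc47a. They number 57 of the 22046 protein-coding genes, and of 54532 genes in all, with 14 Slco, 25 Slc22a, 7 Slc10a, 2 Slc47a and 9 Slc17a genes. The HKO group is 3 livers with a hepatocyte-specific G3bp1 knockout, and the Flox group is 3 livers of litter controls with the floxed gene. All mice of both groups went onto a high-fat diet at 6 weeks of age and stayed on it for 12 weeks, so no liver on normal chow enters. The labels name neither the Cre line nor its promoter, nor do they tie each library to an animal of its own. The p-values therefore cover the spread among the 6 samples, part of which may be technical. As labelled, the knockout spares G3bp1 in cells of the liver other than hepatocytes, which was not tested.

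Hepatocytes take up bile salts and organic ions from blood across their sinusoidal membrane and pass them to bile across the canalicular membrane. Slc10a1 (NTCP) draws in bile salts together with sodium, and the organic anion transporting polypeptides of the Slco family do so without sodium, along with bilirubin, hormones and drugs. The Slc22a family holds the organic cation and organic anion transporters and the carnitine carrier, Slc47a genes encode proton-coupled exporters of organic cations, and Slc17a genes encode carriers of phosphate, urate, sialic acid, glutamate or nucleotides. ABC pumps, which are not in the set, carry bile salts out into bile.

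Each library held between 15804115 and 17954066 reads assigned to genes, of which the 57 transporters took 64402 to 88116. Values are FPKM, a read count scaled to the length of the gene and to a library size. That size, recovered from the values, was not the number of reads assigned to genes. It was 1.06, 1.01 and 1.03 of that number in HKO 1 to HKO 3. In Flox 1 to Flox 3 it was 0.972, 0.934 and 1.03 of that number, so the scaling differed between the groups. G3bp1, the targeted gene, stood at 4.66, 4.28 and 4.44 FPKM in the HKO livers, against 8.46, 8.46 and 9.10 FPKM in the Flox livers, so the targeted gene was lower in every library labelled HKO. Its log2 fold change of -0.83 did not pass the test over all genes (adjusted p = 0.11 in limma). The HKO mean of G3bp1 was 0.514 of the Flox mean, and whole-liver RNA does not show which cells hold the rest. The hepatocyte marker Alb stood at 25430 FPKM or more in every library, and the kidney tubule markers Lrp2, Slc34a1, Kap and Umod summed to at most 0.165 FPKM. Of 7 hepatocyte markers, 4 had a log2 fold change (HKO minus Flox) above 0 and 3 below, with a median of 0.03. Apob and Hnf4a lay wholly higher in HKO (2 of 7, beside 6.06% of all genes). Apoa1 and Ttr lay wholly lower (2 of 7, beside 7.21%). Libraries did not separate by group on the first principal component, where HKO 2, HKO 3 and Flox 3 lay at 13.8, 14.5 and 14.1 and HKO 1, Flox 1 and Flox 2 at -3.96, -14.9 and -23.5. A liver sample cannot tell fewer cells of a type from less RNA per cell.

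The transporters ran from highly abundant to unread. Of the 57 genes, 30 reached 0.5 FPKM in at least 3 of the 6 libraries and were tested, and 27 did not. The sinusoidal carriers Slc10a1, Slco1b2 and Slco1a1, in that order, averaged at least 100 FPKM over the 6 libraries. The summed level of all 57 genes was 1117, 1341 and 1384 FPKM in the HKO livers, against 1230, 1301 and 1291 FPKM in the Flox livers. Slc10a1 and Slco1b2 together made up 45.5% ± 3.48 of that sum in HKO and 42.6% ± 3.37 in Flox (SD, n = 3 each), so the groups overlapped both in the sum and in this share.

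**Figure D1:**
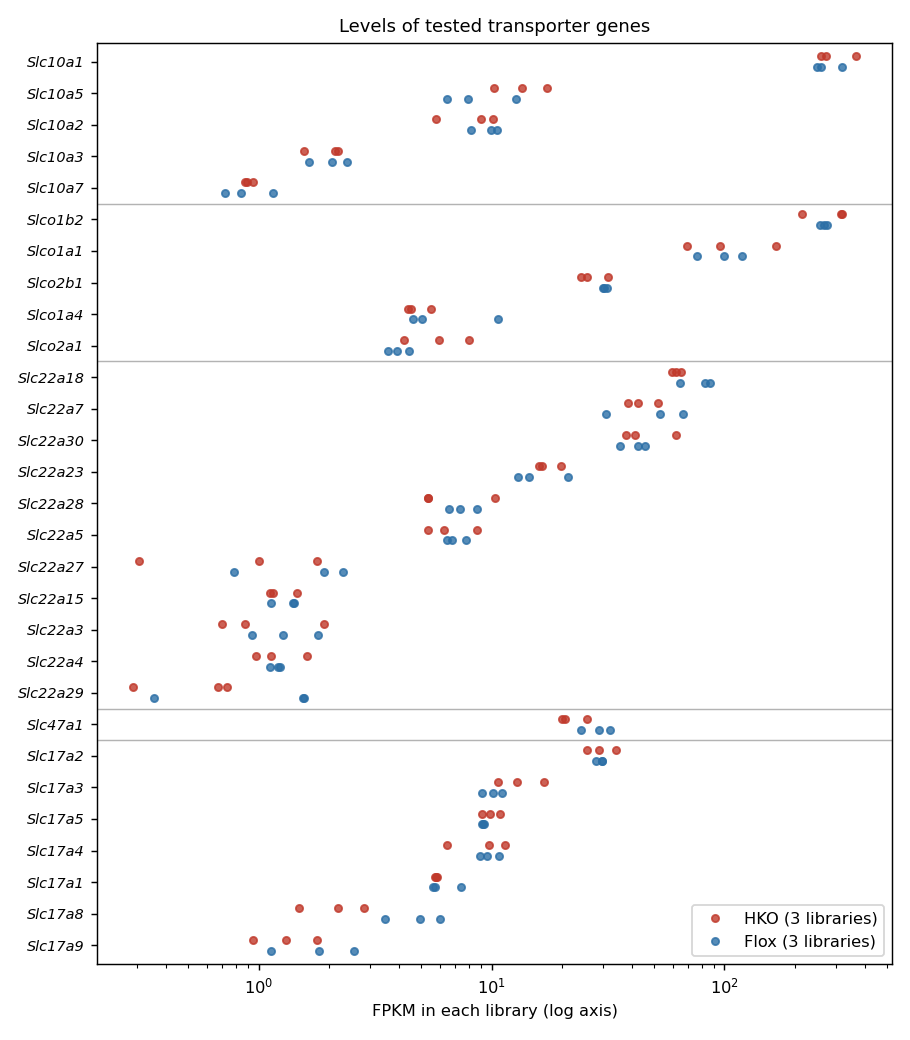
FPKM of 29 tested transporter genes (log axis), grouped as Slc10a, Slco, Slc22a, Slc47a and Slc17a and ordered by mean level within a family; each point is 1 library of HKO or Flox. Slc10a1 and Slco1b2 lie above 200 FPKM in every library, and Slc17a8 is the only gene whose HKO and Flox points do not overlap.

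No transporter passed the test between the groups. Limma (two-sided, Benjamini-Hochberg over all 11856 genes tested) gave 0 of the 30 members an adjusted p under 0.05, where 0.00843% of all genes passed. Voom on recovered reads also called 0 of the 30, beside 0.0253% of all genes. Unadjusted p-values fell under 0.05 for 2 of the 30, beside 7.62% of all genes. Slco2a1 stood higher in HKO, beside 3.08% of all genes, and Slc17a8 lower, beside 4.55%. The HKO livers lay wholly below the Flox livers in 1 of the 30, beside 7.21% of all genes, and wholly above them in 0, beside 6.06%, with 13.3% of all genes in either direction. The median log2 fold change (HKO minus Flox, of FPKM + 1) was -0.08 over the members, with 12 above 0 and 18 below, and -0.01 over all genes, of which 51.2% were below 0. Rescaling to TPM moved the median of all genes by about 0.15 and turned the split to 21 members above 0 and 9 below. Relative to the median of all genes it was then 11 above and 19 below. Scaled instead by the reads assigned to genes, 14 members were above 0 and 16 below, with a median of -0.014. Among 176 other tested genes named Slc, 94 were above 0 and 82 below, with a median of 0.01 and 11 at an unadjusted p under 0.05.

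**Figure D2:**
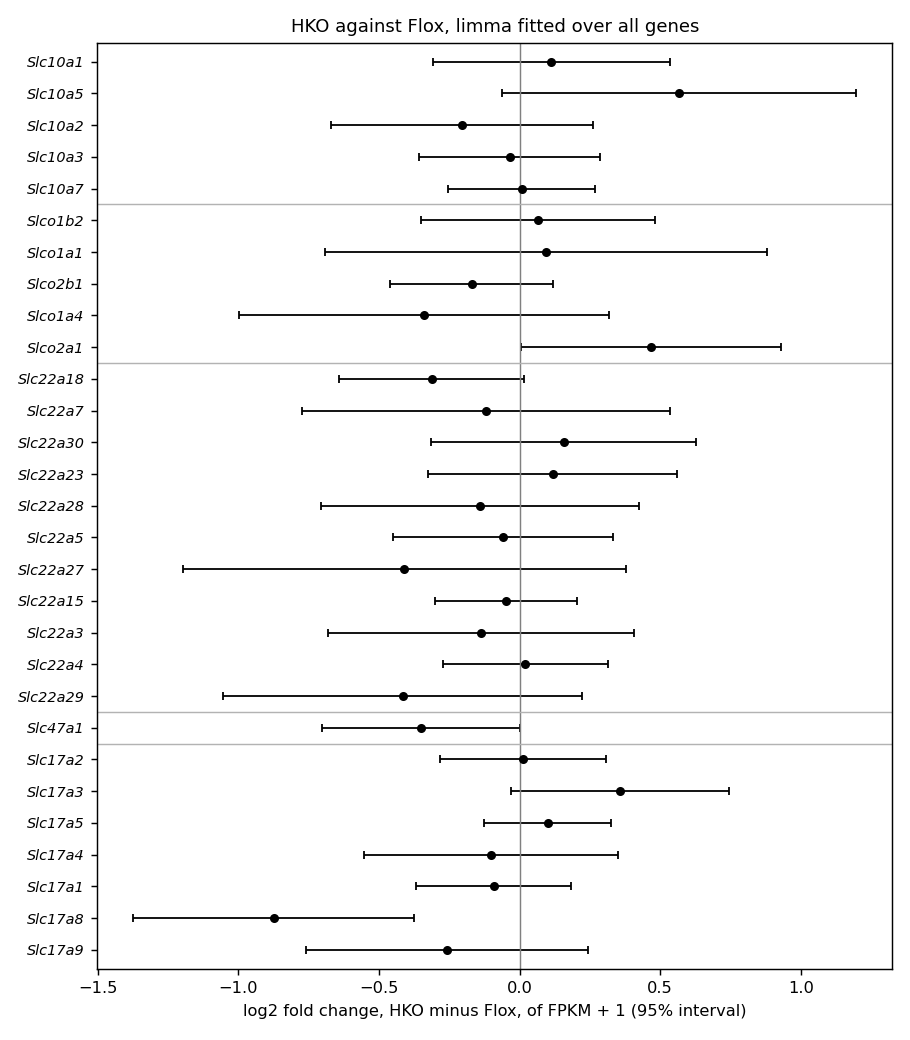
Log2 fold change of FPKM + 1 (HKO minus Flox) of 29 tested transporter genes; points are limma estimates and bars their 95% intervals, unadjusted for the number of genes. The interval excludes 0 for Slc17a8 (-1.37 to -0.37) and Slco2a1 (0.01 to 0.93), and includes it for the other 27.

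Slc10a1 encodes the sodium-dependent bile salt carrier NTCP and lies on chromosome 12 (80953183 to 80968705, minus strand, GRCm38). It stood at 273, 261 and 368 FPKM in the HKO livers, against 249.5, 259 and 320 FPKM in the Flox livers. HKO 3 and Flox 3 held the highest values of their groups, and the groups overlapped. The log2 fold change was 0.11 (SE 0.18, 95% interval -0.31 to 0.53, adjusted p = 0.857 in limma). Without HKO 3 it was -0.04.

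Slco1b2 and Slco1a1 encode the main hepatic organic anion transporting polypeptides of the mouse and lie in 1 cluster on chromosome 6 with Slco1a4, Slco1a5, Slco1a6 and Slco1c1. Slco1b2 stood at 215, 319 and 317 FPKM in the HKO livers, against 267, 257 and 277 FPKM in the Flox livers. HKO 1 lay below every Flox liver, and HKO 2 and HKO 3 above them. Its log2 fold change was 0.07 (SE 0.18, interval -0.35 to 0.48, adjusted p = 0.919 in limma), and -0.03 without HKO 2 and -0.02 without HKO 3. Slco1a1, which is known as male-biased in mouse liver, stood at 68.7, 166 and 95.8 FPKM in the HKO livers, against 76.2, 99.3 and 119 FPKM in the Flox livers. HKO 1 and HKO 2 thus held the lowest and the highest value of all 6 livers, a 2.42-fold span. For Slco1a1 the log2 fold change was 0.10 with an SE of 0.33 (interval -0.69 to 0.88), and it turned to -0.25 without HKO 2 and -0.07 without Flox 1.

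Slco1a4, a bile salt and digoxin carrier known as female-biased in mouse liver, stood at 4.37, 5.52 and 4.52 FPKM in the HKO livers, against 5.01, 4.62 and 10.6 FPKM in the Flox livers. Flox 3 held 1145 reads of it, and the other 5 libraries 440 to 591. This gave a log2 fold change of -0.34 (SE 0.28, unadjusted p = 0.26, adjusted p = 0.741 in limma), and -0.01 without Flox 3. Transcripts of Slco1a1 and Slco1a4 are up to 86.3% identical where they align, below the 97% over 80% of the length taken as a near-identical copy. Slco2b1, a broadly expressed carrier of steroid sulfates, stood at 24.2, 25.7 and 31.7 FPKM in the HKO livers, against 30.3, 30.1 and 31.2 FPKM in the Flox livers. HKO 1 and HKO 2 were below the narrow Flox range and HKO 3 just above it (log2 fold change -0.17, SE 0.12, unadjusted p = 0.209 and adjusted p = 0.723 in limma). The value was -0.09 without HKO 1 and -0.28 without HKO 3. Under TPM it was 0.00, and antisense genes overlap 7.91% and 1.31% of the Slco2b1 exons, whose reads cannot be told apart without strand.

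The 250 bases before the RefSeq starts (GRCm38.p6; the outer of a pair for Slc10a1) of Slc10a1, Slco1b2 and Slco1a1 are shown because these genes lead the bile salt and organic anion carriers in level. They are written 5′ to 3′ in the direction of transcription. Capitals mark matches to 4 short motifs, searched on both strands. The half-site of the hepatocyte factor HNF1 was searched as GTTAAT. The core of HNF4, a nuclear receptor of hepatocytes, was searched as CAAAGT. The core of the C/EBP factors was searched as TTGCNNAA. The TATA box, which places the start of transcription, was searched as TATAAA. Where matches overlap, their capitals run together.
Slc10a1, chr12:80968706-80968955, minus strand: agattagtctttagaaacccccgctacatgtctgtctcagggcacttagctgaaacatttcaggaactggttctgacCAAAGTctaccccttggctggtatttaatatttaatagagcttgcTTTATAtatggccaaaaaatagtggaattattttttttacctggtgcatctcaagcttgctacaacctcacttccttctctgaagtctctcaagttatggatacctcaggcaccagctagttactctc
Slco1b2, chr6:141629268-141629517, plus strand: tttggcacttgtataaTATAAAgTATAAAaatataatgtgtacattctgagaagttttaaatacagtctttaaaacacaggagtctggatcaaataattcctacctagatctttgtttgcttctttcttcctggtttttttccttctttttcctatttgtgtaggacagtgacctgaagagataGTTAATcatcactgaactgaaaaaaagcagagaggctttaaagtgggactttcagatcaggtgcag
Slco1a1, chr6:141946963-141947212, minus strand: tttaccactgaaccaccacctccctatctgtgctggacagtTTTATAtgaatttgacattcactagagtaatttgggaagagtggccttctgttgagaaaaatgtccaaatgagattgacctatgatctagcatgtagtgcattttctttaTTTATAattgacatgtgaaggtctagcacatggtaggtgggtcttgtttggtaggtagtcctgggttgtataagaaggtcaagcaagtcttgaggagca
The Slc10a1 window holds 1 HNF4 core and, on the opposite strand, TATAAA at position -128 from the start. The Slco1b2 window holds 1 HNF1 half-site and 2 TATAAA matches, at -234 and -227. The Slco1a1 window holds 2 TATAAA matches on the opposite strand, at -209 and -99. The search took any position on either strand, so these matches need not place a start. The GC contents of these windows, in that order, are 40.8%, 33.6% and 40.4%.

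RefSeq windows were found for 47 of the 57 members and for 23 of the 30 tested. At least 1 window held the HNF1 half-site in 13.0% of these 23 genes, beside 5.38% of 8551 tested genes of the whole table with a window. TATAAA was found in 17.4% of the 23 beside 8.27%, at any position and on either strand. The C/EBP core was found in 17.4% beside 9.66%, and the HNF4 core in 17.4% beside 13.3%. These shares rest on 3 or 4 genes each, and some of these are near relatives. The C/EBP matches of Slc22a28, Slc22a29 and Slc22a30, neighbours on chromosome 19, are the same letters, TTGCAGAA. That of Slc10a1 lies only in its inner window, with 250 bases inside the gene. Slc22a28 and Slc22a30 are also among the 4 genes with the HNF4 core. This core was found in 20.8% of the 24 members below the filter with a window. Windows of tested members had a median GC content of 49.2% and 3.5 CpG dinucleotides, against 59.6% and 15 for all tested genes. Of all windows of this length, 6.43% hold the HNF1 half-site, 12.4% the TATA box, 9.56% the C/EBP core and 12.6% the HNF4 core. A match describes letters and is not a binding site.

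The other Slc10a genes were lower in level than Slc10a1. Slc10a5, an orphan relative of NTCP, stood at 10.2, 17.2 and 13.6 FPKM in the HKO livers, against 7.96, 6.45 and 12.7 FPKM in the Flox livers. HKO 1 lay below Flox 3, and HKO 2 and HKO 3 above every Flox liver. The means were 13.7 ± 3.49 FPKM in HKO and 9.05 ± 3.28 FPKM in Flox (SD, n = 3 each), with a log2 fold change of 0.57 (SE 0.27, interval -0.06 to 1.20, unadjusted p = 0.0709 and adjusted p = 0.667 in limma). It ranged from 0.38 to 0.82 with 1 library left out. Exons of Gm38303 on the same strand overlap 6.83% of Slc10a5. Slc10a2, the bile salt carrier ASBT of ileum and bile duct cells, stood at 5.78, 9.005 and 10.2 FPKM in the HKO livers, against 10.6, 8.19 and 9.93 FPKM in the Flox livers. HKO 1 was the lowest liver for Slc10a2, and the log2 fold change of -0.20 (SE 0.20) did not pass.

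The cholangiocyte markers Krt19, Krt7, Epcam, Sox9, Cftr and Tspan8 summed to 3.17 to 5.33 FPKM in the HKO livers and 3.64 to 4.61 FPKM in the Flox livers. Of the 4 tested, 3 had a fold change above 0, and 0 had an unadjusted p under 0.05 in limma, beside 7.62% of all genes. The part of these cells in the Slc10a2 level was not tested. Slc10a3, an orphan member whose exons share 12.8% with Ubl4a, averaged 1.96 ± 0.347 FPKM in HKO and 2.03 ± 0.375 FPKM in Flox, and Slc10a7 0.906 ± 0.0390 FPKM in HKO and 0.905 ± 0.223 FPKM in Flox (SD, n = 3 each). Slc10a6, a steroid sulfate carrier, had 0, 0 and 3 reads in the HKO livers, against 4, 2 and 1 in the Flox livers. Slc10a4 had no reads.

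Slc47a1 encodes MATE1, the canalicular exporter that passes organic cations to bile. It stood at 20.6, 20.01 and 25.8 FPKM in the HKO livers, against 29.0, 32.3 and 24.1 FPKM in the Flox livers. HKO 3 lay above Flox 3, and HKO 1 and HKO 2 below all Flox livers. Slc47a1 averaged 22.1 ± 3.19 FPKM in HKO and 28.5 ± 4.13 FPKM in Flox (SD, n = 3 each), with a log2 fold change of -0.35 (SE 0.15, unadjusted p = 0.0515 and adjusted p = 0.651 in limma). That value was -0.18 under TPM, which moved the median of all genes by about 0.15 the same way.

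Slc22a18, an imprinted carrier gene, stood at 61.9, 59.3 and 65.4 FPKM in the HKO livers, against 86.8, 82.5 and 64.6 FPKM in the Flox livers. The HKO livers formed a narrow range that contained Flox 3 and lay below Flox 1 and Flox 2. Its log2 fold change was -0.31 (SE 0.14, interval -0.64 to 0.02, unadjusted p = 0.0596 and adjusted p = 0.664 in limma), and -0.14 under TPM. Slc22a7, the organic anion carrier OAT2, stood at 38.6, 42.5 and 51.9 FPKM in the HKO livers, against 53.1, 66.5 and 31.0 FPKM in the Flox livers. Flox 2 and Flox 3 held its highest and lowest values. Slc22a23, an orphan member, stood at 16.4, 19.8 and 15.9 FPKM in the HKO livers, against 12.9, 14.5 and 21.3 FPKM in the Flox livers.

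Slc22a5 encodes OCTN2, which carries carnitine, the cofactor that brings long-chain fatty acids into mitochondria. It stood at 8.67, 6.28 and 5.34 FPKM in the HKO livers, against 6.74, 7.78 and 6.41 FPKM in the Flox livers. HKO 1 was the highest and HKO 3 the lowest liver, so the HKO range enclosed the Flox range (log2 fold change -0.06, SE 0.17). Slc22a4, the ergothioneine carrier OCTN1, averaged 1.24 ± 0.338 FPKM in HKO and 1.19 ± 0.0619 FPKM in Flox (SD, n = 3 each). Slc22a3, the low-affinity cation carrier OCT3, averaged 1.16 ± 0.655 FPKM in HKO and 1.34 ± 0.439 FPKM in Flox, and its exons overlap those of Plg on the other strand by 9.31%. Slc22a15 averaged 1.24 ± 0.187 FPKM in HKO and 1.32 ± 0.157 FPKM in Flox.

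**Figure D3:**
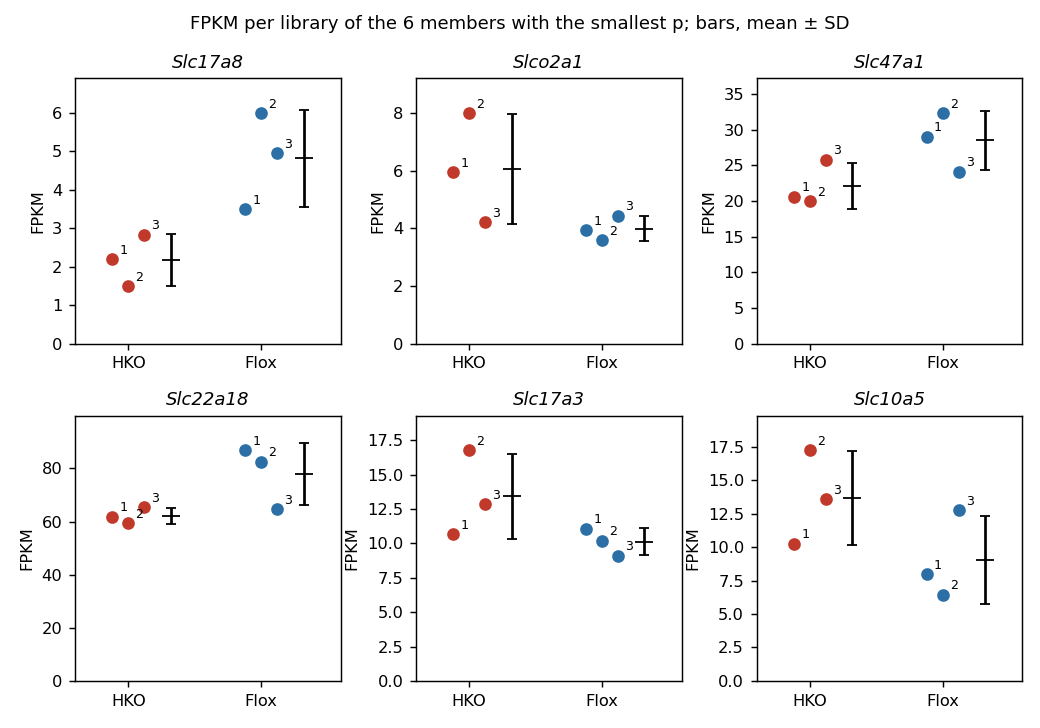
FPKM per library (numbers mark the replicate) of the 6 transporter genes with the smallest unadjusted p, HKO beside Flox; bars are mean ± SD of 3 libraries. Slc17a8 is lower in each HKO liver (1.49 to 2.83 FPKM) than in each Flox liver (3.49 to 5.99 FPKM), and the groups overlap in the other 5 genes.

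Slc17a8 was the 1 transporter whose groups did not overlap. It encodes VGLUT3, a vesicular glutamate carrier known from neurons and inner hair cells, and lies on chromosome 10 (89574020 to 89621253, minus strand, GRCm38). It stood at 2.19, 1.49 and 2.83 FPKM in the HKO livers, against 3.49, 5.99 and 4.95 FPKM in the Flox livers. These values rest on 183, 117 and 248 reads in HKO, against 253, 420 and 393 reads in Flox. HKO 2 was the lowest and Flox 2 the highest liver, and the closest pair was HKO 3 and Flox 1. The means were 2.17 ± 0.675 FPKM in HKO and 4.81 ± 1.26 FPKM in Flox (SD, n = 3 each).

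Its log2 fold change was -0.87 (SE 0.21, interval -1.37 to -0.37), with an unadjusted p of 0.00433 and an adjusted p of 0.58 in limma. The exact two-sided permutation p was 0.1, the smallest that 3 against 3 libraries allow. The HKO mean was 0.451 of the Flox mean in FPKM. Over the alternatives tried, the log2 fold change ran from -1.15 with voom on recovered reads to -0.68 with array weights, and the adjusted p from 0.154 to 0.989. Leaving out 1 library gave -1.05 to -0.71. The closest transcript of another gene, Slc17a6, aligns over 31.1% of the length at 75.2% identity, and Slc17a6 itself had no reads. The 250 bases before the outer of its pair of RefSeq starts are shown because Slc17a8 is the member that differed most between the groups; none of the 4 short motifs above was found in them.
Slc17a8, chr10:89621250-89621499, minus strand: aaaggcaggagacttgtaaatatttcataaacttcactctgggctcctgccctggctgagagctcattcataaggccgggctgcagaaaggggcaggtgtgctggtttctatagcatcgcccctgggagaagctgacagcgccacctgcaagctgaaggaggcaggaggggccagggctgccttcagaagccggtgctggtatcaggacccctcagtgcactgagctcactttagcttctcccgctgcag
Its GC content is 57.2%, higher than in the 3 windows of Slc10a1, Slco1b2 and Slco1a1.

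Of the other Slc17a genes, Slc17a1 to Slc17a4 encode phosphate and urate carriers and lie side by side on chromosome 13 (23806993 to 23915009). Slc17a3, the urate carrier NPT4, stood at 10.6, 16.8 and 12.8 FPKM in the HKO livers, against 11.1, 10.2 and 9.10 FPKM in the Flox livers. HKO 1 lay within the Flox range, and HKO 2 and HKO 3 above it. The log2 fold change was 0.36 (SE 0.17, interval -0.03 to 0.75, unadjusted p = 0.0661 and adjusted p = 0.667 in limma), and 0.20 without HKO 2. Slc17a2 stood at 34.2, 29.0 and 25.7 FPKM in the HKO livers, against 29.9, 28.0 and 29.7 FPKM in the Flox livers. Slc17a4 stood at 6.45, 9.77 and 11.4 FPKM in the HKO livers, against 10.8, 9.55 and 8.93 FPKM in the Flox livers. Slc17a1, which encodes NPT1, stood at 5.75, 5.71 and 5.82 FPKM in the HKO livers, against 7.41, 5.62 and 5.72 FPKM in the Flox livers. In these last 3 genes the HKO and Flox ranges overlapped and the log2 fold changes were 0.01, -0.10 and -0.09. The fold changes of the 4 neighbours were not all of 1 sign.

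Slc17a5 encodes sialin, which carries sialic acid out of lysosomes, and stood at 9.89, 9.10 and 10.9 FPKM in the HKO livers, against 9.17, 9.13 and 9.27 FPKM in the Flox livers. It had the smallest span over the 6 livers of all tested members, 1.19-fold, and its log2 fold change was 0.10 (SE 0.10, interval -0.13 to 0.33, unadjusted p = 0.33 in limma), with 0.04 without HKO 3 and 0.16 without HKO 2. Slc17a9, the vesicular nucleotide carrier, stood at 1.34 ± 0.419 FPKM in HKO and 1.84 ± 0.717 FPKM in Flox (SD, n = 3 each), with a log2 fold change of -0.26 (SE 0.21, unadjusted p = 0.263 in limma). It was -0.08 without Flox 2, -0.13 without HKO 3 and -0.45 without Flox 3. Slc17a7, the vesicular glutamate carrier VGLUT1, had 2 reads in all 6 libraries together.

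Slco2a1 had the smallest p of the members above 0. It encodes the prostaglandin carrier PGT, which clears prostaglandins from the extracellular space and is known from endothelial cells, and lies on chromosome 9 (102988712 to 103096002, plus strand, GRCm38). It stood at 5.96, 8.01 and 4.22 FPKM in the HKO livers, against 3.95, 3.59 and 4.44 FPKM in the Flox livers. HKO 1 and HKO 2 lay above all Flox livers, and HKO 3 just below Flox 3. The log2 fold change was 0.47 (SE 0.20, unadjusted p = 0.0479 and adjusted p = 0.651 in limma), and 0.27 without HKO 2. An rRNA gene on the other strand overlaps 0.768% of its exons.

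Markers of other liver cells are given beside this value. The 8 sinusoidal endothelial markers summed to 28.3 to 37.8 FPKM in the HKO livers and 25.3 to 33.8 FPKM in the Flox livers. Of these, 6 were above 0, 2 below and 0 at an unadjusted p under 0.05 in limma, beside 7.62% of all genes. All 12 Kupffer cell markers were above 0. Of these, 4 had an unadjusted p under 0.05 in limma, beside 3.08% of all genes, and 4 lay wholly higher in HKO, beside 6.06% of all genes. They summed to 223 to 365 FPKM in HKO and 149 to 272 FPKM in Flox. No marker of these lists was at 0 in any library. The part of these cells in the Slco2a1 level was not tested.

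**Figure D4:**
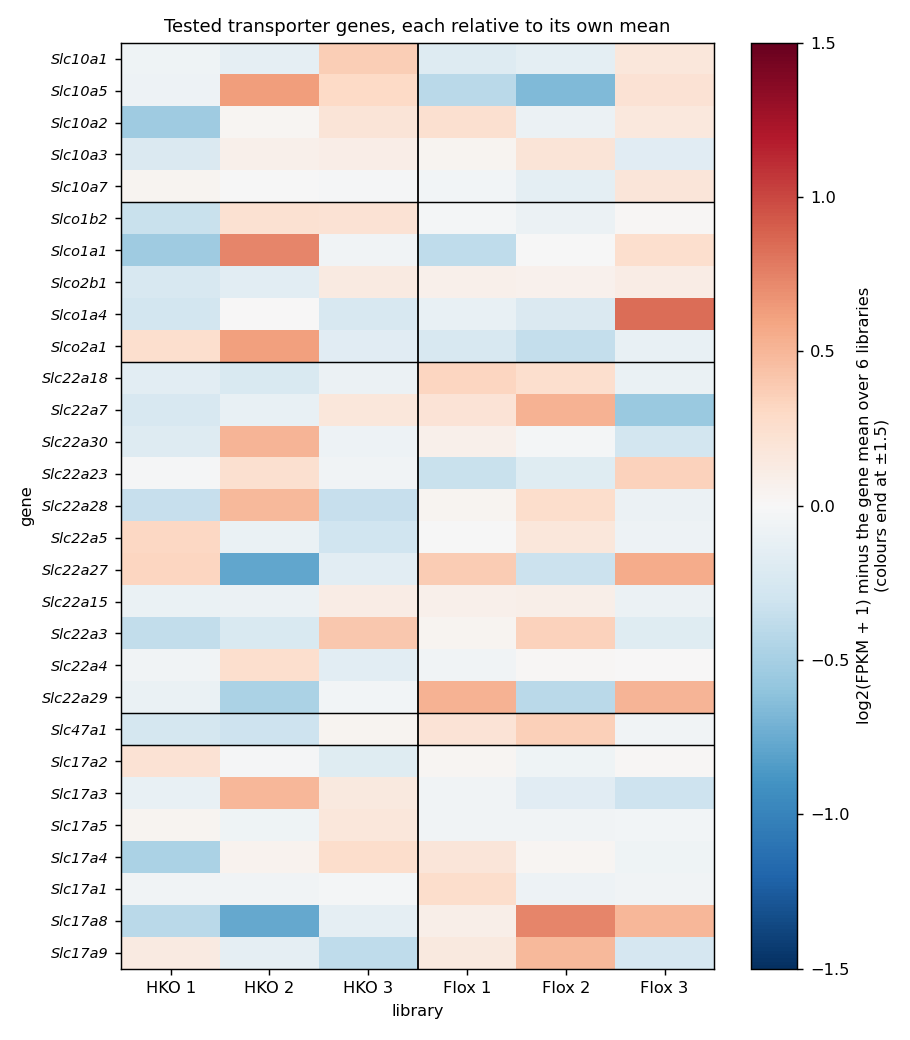
Log2(FPKM + 1) of 29 tested transporter genes, each minus its own mean over the 6 libraries, for the 3 HKO and 3 Flox livers. Slco1a1, Slc10a5 and Slco2a1 are high in HKO 2, Slco1a4 is high in Flox 3, and only Slc17a8 is below its mean in all HKO livers and above it in all Flox livers.

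Levels also varied within the groups. In 10 of the 30 tested members the highest of the 6 livers exceeded the lowest at least 2-fold. HKO 1 was the lowest liver in 9 members. HKO 2 was the highest in 8 and the lowest in 7. The largest spans among tested members were those of Slc22a27 and Slc22a29. They lie among the Slc22a genes of chromosome 19, Slc22a26 to Slc22a30 (7781041 to 8405111, all on the minus strand), which belong to the organic anion transporter branch and form a cluster found in rodents. Slc22a27 stood at 1.78, 0.306 and 1.003 FPKM in the HKO livers, against 1.90, 0.782 and 2.29 FPKM in the Flox livers, a 7.49-fold span. Slc22a29 stood at 0.670, 0.290 and 0.736 FPKM in the HKO livers, against 1.58, 0.356 and 1.55 FPKM in the Flox livers. For both genes HKO 2 and Flox 2 were the lowest of their groups, with 11 and 12 reads of Slc22a29 and 11 and 25 of Slc22a27.

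Slc22a26 did not reach the filter, with 102, 17 and 16 reads in the HKO livers, against 13, 4 and 50 in the Flox livers. HKO 1 and Flox 3 thus held most of its reads. The neighbours Slc22a28 and Slc22a30 had another order. Slc22a30 stood at 37.8, 62.0 and 41.2 FPKM in the HKO livers, against 45.7, 42.4 and 35.7 FPKM in the Flox livers, and Slc22a28 at 5.35, 10.3 and 5.33 FPKM in HKO, against 7.31, 8.67 and 6.59 FPKM in Flox. HKO 2 was the highest liver for both. Their transcripts are 98.8% identical over the whole of Slc22a28, so the split of reads within this pair is uncertain. Slc22a27 and Slc22a29 are 96.8% identical over 97% of Slc22a27, just under the limit taken for a copy. None of the 4 tested genes of the cluster passed (log2 fold changes -0.41, -0.42, -0.14 and 0.16 for Slc22a27, Slc22a29, Slc22a28 and Slc22a30, with adjusted p-values of 0.703 to 0.868 in limma). The SE was 0.33 for Slc22a27 (unadjusted p = 0.256 in limma) and 0.27 for Slc22a29 (unadjusted p = 0.167). With 1 library left out the log2 fold change of Slc22a27 ran from -0.67 (without Flox 2) to -0.13 (without HKO 2), and was -0.67 without HKO 1 and -0.23 without Flox 3. That of Slc22a29 ran from -0.72 (without Flox 2) to -0.26 (without Flox 1), and was -0.27 without Flox 3.

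**Figure D5:**
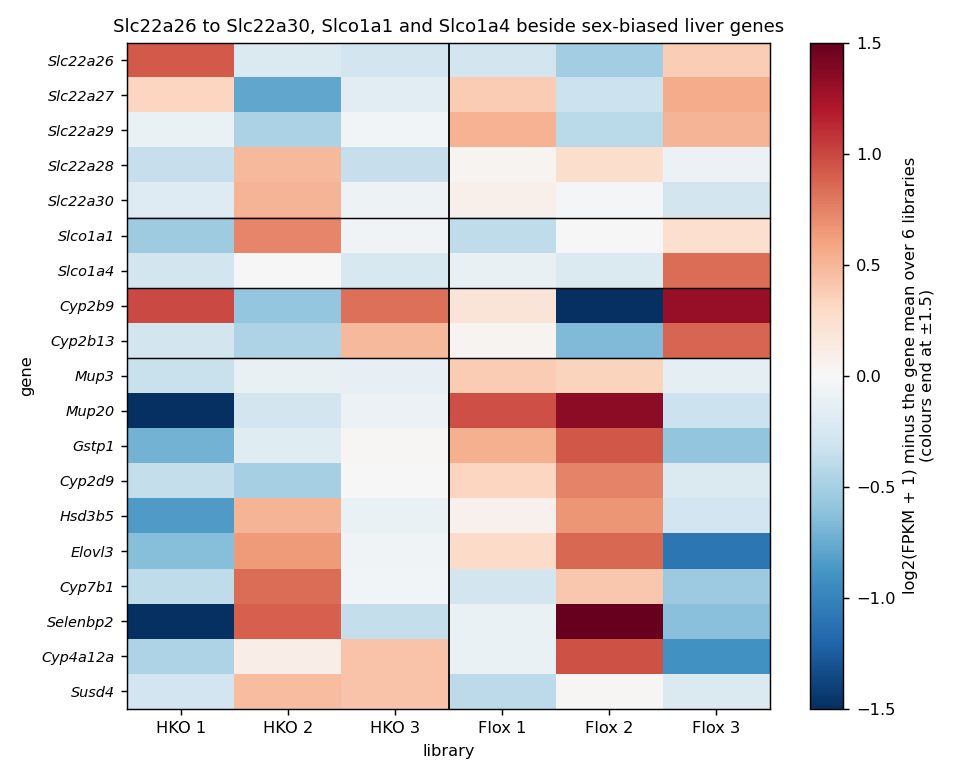
Log2(FPKM + 1) minus the mean over 6 libraries of Slc22a26 to Slc22a30, Slco1a1 and Slco1a4, beside 2 female-biased and 10 male-biased liver genes, for the HKO and Flox livers. Slc22a27, Slc22a29, Cyp2b9 and Cyp2b13 are lowest within their group in HKO 2 and Flox 2. The Cyp2b13 values there, 0.192 and 0.0359 FPKM, rest on few reads. Of the 10 male-biased genes, 6 are highest within HKO in HKO 2 and 9 are highest within Flox in Flox 2. Both hold for 5 of them, Selenbp2 and Elovl3 included.

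Sex-biased liver genes, which respond to growth hormone pulses, are given beside the cluster because several transporters are among them. The female-biased Cyp2b9 stood at 30.8, 9.81 and 27.6 FPKM in the HKO livers, against 17.5, 1.40 and 38.8 FPKM in the Flox livers. HKO 2 and Flox 2 were again the lowest of their groups, as they were for the female-biased Cyp2b13 (0.192 and 0.0359 FPKM). Cyp2b13 stood at 0.361 and 1.295 FPKM in HKO 1 and HKO 3, against 0.694 and 1.999 FPKM in Flox 1 and Flox 3. Its values lie near the floor and rest on few reads. The male-biased Elovl3 stood at 77.0, 188 and 116 FPKM in the HKO livers, against 148, 220 and 56.5 FPKM in the Flox livers, and Selenbp2 at 14.9, 106 and 44.3 FPKM in HKO, against 53.0, 239 and 36.5 FPKM in Flox. HKO 2 and Flox 2 were the highest of their groups for both. The same held for 5 of the 10 male-biased genes, that is, for these 2 and for Hsd3b5, Cyp7b1 and Susd4. It did not hold for Mup3, Mup20, Gstp1, Cyp2d9 and Cyp4a12a, and HKO 2 was the lowest HKO liver for Cyp2d9. Taken singly, Flox 2 was the highest Flox liver in 9 of the 10 genes, and HKO 2 the highest HKO liver in 6. Slco1a1 was highest in HKO 2 but not in Flox 2. Of the 10 male-biased genes 3 were above 0 and 7 below, beside 51.2% of all genes below 0, with a median log2 fold change of -0.33. These counts too were made only on the deposited FPKM scale. Mup20 and Cyp2d9 had the smallest p-values among them, with log2 fold changes of -1.32 and -0.57 (adjusted p = 0.651 and 0.667 in limma). Of the 10 female-biased genes only Cyp2b9 and Cyp2b13 reached the filter, with log2 fold changes of 0.83 and -0.17. Neither list had a member at an unadjusted p under 0.05 in limma, beside 7.62% of all genes, or without overlap, beside 13.3%. The relation of these genes to the Slc22a cluster was not tested.

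Genes that work with the carriers were counted from lists. Of 12 exporters of bile salts and organic ions 10 were tested, 6 above 0 and 4 below, with a median log2 fold change of 0.02. Abcb11, the canalicular bile salt pump, stood at 103, 144 and 138 FPKM in the HKO livers, against 132, 105 and 122 FPKM in the Flox livers. Without overlap there was 1 of the 10 exporters, beside 13.3% of all genes. This was Abcc6, at 29.2, 28.3 and 28.1 FPKM in the HKO livers, against 32.6, 35.1 and 33.1 FPKM in the Flox livers (log2 fold change -0.23, adjusted p = 0.648 in limma). Abcc3, a basolateral exporter, averaged 27.7 ± 6.27 FPKM in HKO and 34.6 ± 5.20 FPKM in Flox (SD, n = 3 each).

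Of 15 regulators of transporter genes all were tested, 7 above 0 and 8 below, with a median of -0.04. Rxra, the shared partner of several nuclear receptors, stood at 116, 93.3 and 102 FPKM in the HKO livers, against 73.97, 79.98 and 92.0 FPKM in the Flox livers. Hnf4a, a hepatocyte master regulator, stood at 134, 121 and 117 FPKM in the HKO livers, against 103, 113 and 111 FPKM in the Flox livers. Both were without overlap, 2 of 15 beside 13.3% of all genes, and neither passed (log2 fold changes 0.34 and 0.18, adjusted p = 0.648 and 0.697 in limma). Nr1h4, which encodes the bile salt receptor FXR, stood at 54.2, 39.8 and 50.6 FPKM in the HKO livers, against 46.2, 47.5 and 55.2 FPKM in the Flox livers. Ahr averaged 9.53 ± 0.444 FPKM in HKO and 7.04 ± 3.17 FPKM in Flox (SD, n = 3 each).

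Bile acid synthesis supplies the substrates of Slc10a1. Of 12 listed genes 11 were tested, 2 above 0 and 9 below, with a median log2 fold change of -0.25, and 6 were wholly below in HKO beside 7.21% of all genes. The 2 above 0 were Cyp7a1, the rate-limiting enzyme of bile acid synthesis, and Cyp7b1. Cyp7a1 had the largest fold change of the list, at 20.6, 5.51 and 29.9 FPKM in the HKO livers, against 6.58, 3.15 and 14.6 FPKM in the Flox livers (log2 fold change 1.05 with an SE of 0.69, adjusted p = 0.708 in limma). HKO 2 and Flox 2 were the lowest livers of their groups for Cyp7a1, and the groups overlapped. Akr1d1, a steroid reductase, stood at 51.9, 66.3 and 72.6 FPKM in the HKO livers, against 105, 77.5 and 97.1 FPKM in the Flox livers. Acox2, an oxidase of the bile acid side chain, stood at 39.0, 45.4 and 44.1 FPKM in the HKO livers, against 60.4, 65.3 and 47.4 FPKM in the Flox livers. At an unadjusted p under 0.05 there stood 3 of the 11, all below 0 (these and Hsd17b4), beside 4.55% of all genes. None passed (log2 fold changes -0.55 and -0.41, adjusted p = 0.648 for Akr1d1 and Acox2 in limma). This list was counted only on the deposited FPKM scale. Under TPM the median log2 fold change of all genes was 0.15, so the counts depend on the scale. Some gaps were narrow, as for Scp2, with 1203 FPKM in HKO 3 and 1214 FPKM in Flox 3.

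Among the 27 members below the filter, 11 had no reads in any library. They were Slc22a6 and Slc22a12, the kidney carriers OAT1 and URAT1, with Slc22a16, Slc22a19, Slc22a20, Slc22a22, Slc10a4, Slc17a6, Slco1a5, Slco6c1 and Slco6d1. The limit that a count of 0 allows is 3 reads per library, for counting error only. A further 11 had 1 to 10 reads over all 6 libraries, among them Slc22a2 (OCT2) and Slc22a8 (OAT3) with 1 read each, Slc47a2 with 7 and Slco1c1, the thyroxine carrier of the brain, with 10. The others of that group were Slc10a6, Slc17a7, Slc22a13, Slc22a14, Slco1a6, Slco4c1 and Slco5a1. Slco4a1 had 19 reads in all. Slco3a1, a widely expressed relative, had 57, 67 and 65 reads in the HKO livers, against 56, 38 and 94 in the Flox livers, and Slc22a26 is described above. Slc22a17 had 63 reads in all and Slc22a21, a relative of Slc22a5 at 90.2% identity, had 47. These 27 genes did not enter the test.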

How the data were processed

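RNA of 6 liver samples was sequenced from NEBNext Ultra libraries made of 1.3 µg total RNA, per the labels' protocols, with a kit that leaves strand unmarked. The authors deposited 1 table of FPKM with 1 value per gene and library and a gene length. Per the submitters' processing notes the build was GRCm38 (mm10). An aligner, a counter and an annotation were not given in the sources used here. FPKM times gene length gave whole reads for over 99.9% of values above 0 (within 0.02 reads), and 1 FPKM in a gene of 1 kb stood for 14.9 to 18.5 reads, so low values rest on few reads.

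The test was limma 3.58.1 (R 4.3.3, statmod 1.5.0) on log2(FPKM + 1), with trend and robust moderation, two-sided, for 11856 genes, those reaching 0.5 FPKM in 3 or more of the 6 libraries. P-values were adjusted over all of these by Benjamini-Hochberg, with a threshold of 0.05. The log2(FPKM + 1) scale understates the change of low genes. The test was checked on simulated data of 11666 genes for this comparison, with 96 genes changed 2-fold and 93 changed 4-fold. It recovered 55.2% of the 2-fold and 97.8% of the 4-fold changes, with 12 false calls. The simulation set the same spread for every gene and planted many changes, whereas 1 gene passed here. Its shares therefore do not carry over to the real test, in which G3bp1, at 0.514 of the Flox mean, did not pass. The labels do not say that shared replicate numbers pair animals, so no block was used. Deviations of same-numbered libraries correlated at 0.015 to 0.0704, and those of other pairs at -0.0999 to 0.0736. With 3 libraries per group such correlations cannot exclude a pairing.

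Members and lists were chosen with earlier results of these data known. Per-library values are given for members of at least 5 FPKM on average, without overlap or with an unadjusted p under 0.05, and full statistics for the 12 smallest p-values and for Slc10a1, Slco1a1, Slco1b2, Slco1a4 and Slc47a1. Some named results are not reported here. Genes outside this rule were named after their values were seen. Exon overlaps and copies (blastn 2.17.0) used GENCODE M21, which holds all 57 member identifiers, and promoters came from RefSeq GRCm38.p6. Promoters were planned for the 4 smallest p-values. Slc47a1 had no match, and the windows of Slco2a1 and Slc22a18 lie with 250 and 53 bases inside the deposited gene bounds, against 4 bases for the Slc17a8 window shown, so Slc10a1, Slco1b2 and Slco1a1 were taken instead, after their values were seen. Alternatives were another pseudocount (0.1), 2 other filters, 3 other scalings, voom on recovered reads, array weights, a replicate block and leaving out each library.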

Additional observations from a re-analysis of the deposited data

How the results depend on the processing

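The number of transporters called was 0 under all 15 alternatives, with a smallest adjusted p of 0.13 (array weights). Over all genes, limma called 1, and 0 with no filter, 2 at a mean of at least 5 FPKM, 3 with voom, 3 with array weights, and 0 to 13 with 1 library left out (13 without HKO 1). With the replicate block, 0 genes and 0 transporters passed. Whether the numbers pair the libraries is not stated. The transporters' median log2 fold change of -0.08 became -0.016 with no filter, 0.069 under TPM and -0.014 scaled by assigned reads, and ran from -0.12 (without Flox 3) to -0.0060 (without HKO 1). Members without overlap numbered 1, and 0 at a mean of at least 5 FPKM, where Slc17a8 is not tested, 3 under TPM, 2 scaled by assigned reads and 2 to 11 with 1 library left out (2 without Flox 1, 3 without Flox 2, 4 without HKO 2, 5 without HKO 1, 6 without HKO 3 and 11 without Flox 3). Of all genes, 18.8% to 37.1% were without overlap in these subsets (37.1% without Flox 3), 18.5% under TPM and 13.9% scaled by assigned reads. The share was 14.5% at a mean of at least 5 FPKM. Of 15 members described in full, 11 kept their sign throughout. Under TPM, Slco2b1 stood at 0.0029. With 1 library left out, Slc10a1 ran from -0.040 to 0.23, Slco1b2 from -0.029 to 0.25 and Slco1a1 from -0.25 to 0.39. The cause was not tested. Depth limits Slc22a26, Slc22a27 and Slc22a29, with under 110 reads per library. Among the tested members it also limits Slc10a3 (56 to 82 reads) and Slc22a4 (44 to 69 reads).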
